A study of Mus musculus with 3 samples.

Results

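The cytosolic ribosomal protein genes were examined in mouse macrophages grown from bone marrow. Members were the mouse genes whose symbol is Rpsa or is made of Rpl, Rps or Rplp and a number with at most an a, x or l behind it, and that have at least 1 transcript annotated as protein-coding. This rule used names and annotation alone and found 80 of the 55536 mouse genes, 49 of the large subunit (Rpl and Rplp) and 31 of the small subunit (Rps and Rpsa). A further 3 symbols fitted the name but had no protein-coding transcript and were not members. Ribosomal proteins whose symbols fall outside the pattern (among them Rps3a1, Fau, Rack1 and the paralogs Rpl36al, Rpl22l1 and Rpl7l1) are given beside the members.

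The ribosome translates messenger RNA, and each of its subunits joins ribosomal RNA to a set of small, mostly basic proteins that are needed in near-equal amounts. Messenger RNAs of ribosomal proteins typically begin with a C followed by further pyrimidines, the terminal oligopyrimidine motif, through which the kinase mTOR and the RNA-binding protein LARP1 control their translation. Ribosomal protein genes have also left many processed pseudogenes in mammalian genomes, which are copies of the spliced messenger RNA inserted back into DNA and which resemble the parent gene closely.

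The data are polyadenylated RNA sequencing of 3 libraries of a single group, biological replicates 1, 2 and 3 of primary macrophages of the C57BL/6J strain that received 100 ng/mL of lipid A for 180 min. Lipid A anchors lipopolysaccharide in the bacterial membrane and is sensed by Toll-like receptor 4, but other fields of the labels name the agent lipoprotein A. There was no unstimulated group, so no value here is a response to the agent. All libraries carry the same donor identifier, and nothing ties them to separate animals, so the spread between replicates may be technical. The reads of each library were assigned to genes by 2 methods, called here the gene quantification and the second quantification.

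The gene quantification held 24450338, 34641026 and 60595742 expected counts (estimated fragments per gene) of mouse genes in replicates 1, 2 and 3, and the second 32061558, 38137403 and 67455702. TPM is a share of all transcripts, corrected for transcript length. A gene counted as detected at 1 TPM or more in every replicate. All 8 macrophage markers were detected, with a summed level of 19349 to 29264 TPM. Of 8 neutrophil markers 3 were detected, and all 8 together summed to 714 TPM in replicate 2, against 83.3 and 48.4 TPM in replicates 1 and 3. In replicate 2 S100a9, S100a8 and Ngp had 432, 196 and 60.6 TPM, and Ltf, Camp, Mpo and Elane 17.1, 5.58, 1.48 and 0.87 TPM. The remaining marker, Ly6g, was at 0 TPM in each replicate. No marker of T cells, NK cells, erythroid or stromal cells was detected, and of the B cell markers only Cd79b was. Stromal markers summed to 7.40 TPM in replicate 2, against 0.35 and 0.89 TPM in replicates 1 and 3. Of these Dcn alone had 5.12 TPM in replicate 2, against 0 and 0.02 TPM in replicates 1 and 3.

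The first sequence feature of these genes lies at the annotated transcription start. RefSeq start windows on GRCm38.p6 were present for 60 of the 80 members, and in 12 of them (20.0%) the first transcribed base was C and the run of C and T from there was at least 5 bases long. Among all 32851 RefSeq windows 823 (2.51%) had this form. From the GENCODE M21 starts of the most abundant coding transcript, 10 of 80 members (12.5%) had it, against 2.30% of 21866 protein-coding genes, and the count thus depends on which annotated start is read. Windows of 10 bases before and 20 bases from the start are shown for 4 named members with the form and 4 without it, the pyrimidine run in capitals. They lie at chr4:86857348-86857377 (Rps6), chr3:90213629-90213658 (Rps27), chr7:118116128-118116157 (Rps15a), chr7:141447641-141447670 (Rplp2), chr5:115559457-115559486 (Rplp0), chr14:24490668-24490697 (Rps24), chr10:128549149-128549178 (Rpl41) and chr10:23787190-23787219 (Rps12). Rps6, Rps27, Rps15a, Rpl41 and Rps12 are on the minus strand and the others on the plus strand.
Rps6: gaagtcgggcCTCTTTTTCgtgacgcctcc
Rps27: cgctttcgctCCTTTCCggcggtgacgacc
Rps15a: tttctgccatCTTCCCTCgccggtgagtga
Rplp2: cagcgtcttcCTTTCgccgccggacgccgc
Rplp0: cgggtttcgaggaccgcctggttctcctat
Rps24: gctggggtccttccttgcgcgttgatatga
Rpl41: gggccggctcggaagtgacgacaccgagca
Rps12: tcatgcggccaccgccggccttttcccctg
The windows without capitals still hold pyrimidine stretches in some cases. In Rps24 a run of 6 began at the annotated start itself but with T, and in Rps12 a run lay further inside the transcript.

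Nearly every member was abundant. At 1 TPM or more in every replicate, 77 of 80 members were detected, beside 18.1% of all genes. The members took 7.17%, 5.88% and 7.11% of all TPM in replicates 1, 2 and 3, a mean of 6.72% ± 0.728 (SD, n = 3). Because they are short, with a median effective length of 444 bases against 2099 bases for all detected genes, they held a smaller share of the expected counts, 1.75% ± 0.223. A single entry, CT010467.1, took 20041, 18006 and 82217 TPM, and of the TPM of nuclear protein-coding genes alone the members took 8.27%, 7.09% and 8.73%. The median over all 80 members was 733, 637 and 747 TPM in replicates 1, 2 and 3, against 14.6, 15.2 and 14.1 TPM for detected genes. On the log2(TPM + 0.1) scale this difference was 5.58 ± 0.18 (SD, n = 3; 47.8-fold), above 0 in 3 of 3 replicates. With 3 replicates the exact two-sided sign-flip permutation test cannot go below p = 0.25, which is the value it gave. At 100 TPM or more in every replicate stood 76 members, which make up 6.65% of the 1142 genes at that level, and Rpl5 was the single detected member below it.

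The detected members lay closer together than genes in general. Between the 25th and 75th percentile their mean level differed 2.28-fold, against 8.49-fold over all detected genes, and the SD of log2 mean TPM was 0.91 over members, against 2.24 over detected genes. The whole span was still 33.3-fold, reaching from 84.8 TPM for Rpl5 to 2823 TPM for Rplp1.

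**Figure D1:**
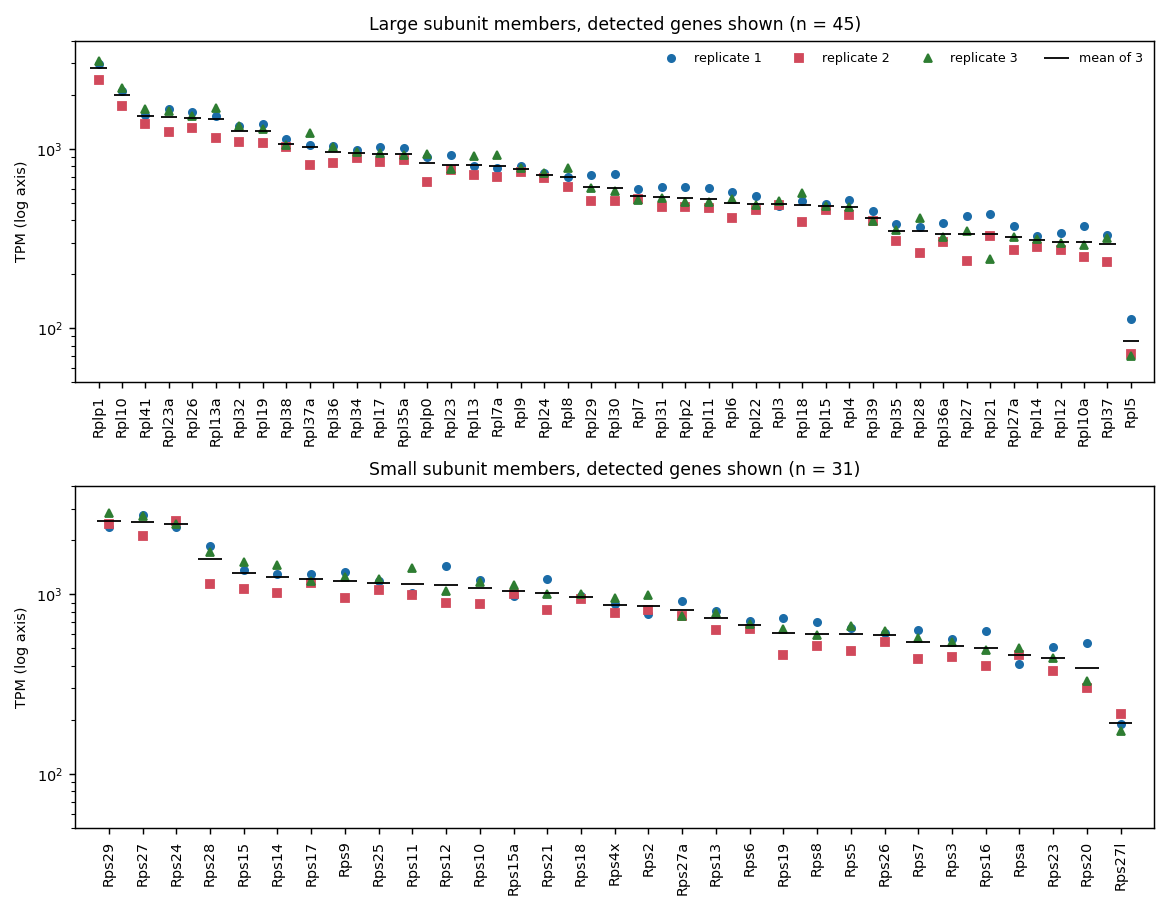
TPM (log axis) of 76 of the 77 detected cytosolic ribosomal protein genes in replicates 1, 2 and 3, large subunit above and small subunit below, ordered by the mean (black line). The 25th to 75th percentile reaches from 493 to 1125 TPM, Rpl5 stands apart at 84.8 TPM and Rps27l at 192 TPM, and replicate 2 is often the lowest point.

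The stalk of the large subunit, where elongation factors dock, is built from the scaffold Rplp0 and the acidic proteins Rplp1 and Rplp2. Rplp1 (chr9:61913284-61914542) had 2986, 2410 and 3073 TPM in replicates 1, 2 and 3, the highest level among members and the 42nd of all genes. Rplp0 (chr5:115559467-115563727) had 904, 656 and 936 TPM. Rplp2 (chr7:141447370-141451585) had 610, 475 and 503 TPM. The order Rplp1 above Rplp0 above Rplp2 was the same in each replicate, and their ranges did not overlap. On CPM, the count scaled to the library total and not corrected for length, Rplp0 was the highest member with 591 CPM on average.

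Among other large subunit members, Rpl10, which joins late and completes the peptidyl transfer site, had 2086, 1730 and 2182 TPM. Rpl41, Rpl23a and Rpl26 had means of 1523 ± 143, 1511 ± 241 and 1484 ± 156 TPM (SD, n = 3 each). These 3 genes did not differ beyond their spread. Rpl3, a core protein near the peptidyl transfer site, had 478, 488 and 511 TPM. At the lower end of the detected large subunit genes were Rpl12, Rpl10a, Rpl37 and Rpl5, with means of 304, 303, 296 and 84.8 TPM. Rpl5, which binds 5S ribosomal RNA and is also known to bind Mdm2, had 112, 72.0 and 70.1 TPM in replicates 1, 2 and 3, below every other detected member in each replicate.

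In the small subunit, Rps29, Rps27 and Rps24 led with means of 2554 ± 249, 2537 ± 359 and 2462 ± 88.7 TPM (SD, n = 3 each), which overlapped between genes. Rps28 followed with 1854, 1138 and 1726 TPM in replicates 1, 2 and 3. This order rests on the correction for length. By mean CPM, Rps24 ranked 3 among all members, Rps29 35, Rps27 55 and Rps28 64. Rps14, Rps6 and Rps19 are widely studied members, Rps6 as the substrate of S6 kinase and Rps19 because its human counterpart is mutated in Diamond-Blackfan anaemia. Their means were 1253 ± 222 TPM for Rps14, 677 ± 34.3 TPM for Rps6 and 612 ± 139 TPM for Rps19. Rpsa, also known as a laminin receptor precursor, had 410, 459 and 499 TPM, so that it was highest in replicate 3. The lowest was Rps27l, with 188, 216 and 173 TPM.

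The median large subunit member was lower than the median small subunit member in 3 of 3 replicates. In replicates 1, 2 and 3 it had 613, 509 and 566 TPM, against 921, 813 and 992 TPM in the small subunit. The log2 difference was -0.69 ± 0.11 (SD, n = 3; exact sign-flip permutation p = 0.25, the smallest possible), or 0.62-fold. It was smaller in the second quantification, -0.39, and on CPM, -0.12, each with the same sign.

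The 3 members under detection are paralogs known for restricted expression. Rpl10l, which is expressed in the testis, had 0 counts in every replicate. Rpl3l, known from heart and skeletal muscle, had 0, 0 and 2 counts. Rpl39l, another testis-enriched paralog, had 4, 16 and 7 counts, or 0.58, 1.33 and 0.34 TPM, against 452, 395 and 394 TPM for Rpl39. For a count of 0, up to 3 counts remain possible, equal to 1.23e-05%, 8.66e-06% and 4.95e-06% of a library's counts in replicates 1, 2 and 3, for counting error only.

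The remaining paralogs were detected, at unequal levels relative to the usual gene. Rps27l, a target of p53, stood below Rps27 by a log2 difference of -3.72 ± 0.37 (SD, n = 3), and of -2.43 on CPM. Rps4l, a name of the pattern annotated as a transcribed processed pseudogene, had 1.91, 3.42 and 2.07 TPM, against 883, 784 and 952 TPM for Rps4x, a log2 difference of -8.45 ± 0.56. Among the paralogs outside the pattern, Rpl22l1 had 144, 103 and 108 TPM, against 544, 457 and 483 TPM for Rpl22, a log2 difference of -2.07 ± 0.14. Rpl7l1 had a mean of 37.1 TPM, against 547 TPM for Rpl7, a difference of -3.88 ± 0.29, and of -2.64 on CPM. These 4 genes were lower in 3 of 3 replicates, and each gave the smallest possible exact permutation p of 0.25. Rpl36al was different in kind, with 326, 329 and 299 TPM, against 385, 304 and 322 TPM for Rpl36a. That log2 difference was -0.08 ± 0.18 (exact sign-flip permutation p = 0.75), within the spread, and its sign turned to 0.18 on CPM and to 0.0040 without replicate 1.

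The replicates were then compared with each other, which compares these libraries and no conditions. By a chi-square test of equal rates on expected counts rounded to whole numbers, 77 of 77 tested members differed between libraries at an adjusted p under 0.05, and the largest adjusted p among them was 0.000236. Of all tested genes 77.5% differed as well, so the count says little about the members. Their median coefficient of variation (CV) on counts scaled by the trimmed mean of M-values (TMM) was 17.9%, against 16.8% over all tested genes. Without replicate 2 it was 7.76%, over replicates 1 and 3.

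The members shared a direction. In replicate 2 their median lay 0.44 below the mean of the other replicates on the log2 scale of scaled CPM (median deviation -0.44, a level of 0.739-fold), against 0.01 for all tested genes. The lowest value fell in replicate 2 for 74 of 77 tested members, beside 36.6% of all genes. The highest fell in replicate 1 for 59 of 77 members, beside 31.6% of all genes, and for 0 members in replicate 2, beside 37.8% of all genes. On TPM the lowest value fell in replicate 2 for 66 of 77 detected members, beside 30.4% of detected genes, and the median deviation was -0.26. Replicates 1 and 3 had median deviations of 0.31 and 0.11. Between replicates 1 and 3 alone the median difference was 0.13, replicate 1 being higher. The members are one gene group that moves together and are no independent replicates, and this order of libraries is a description.

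Rps20, Rplp2, Rps16, Rps28 and Rpl27 varied most, with CVs of 38.7%, 35.2%, 33.6%, 33.6% and 32.9%. Rps20 (chr4:3831334-3835665) had 536, 302 and 328 TPM in replicates 1, 2 and 3, so that replicate 1 stood apart. For Rps28 it was replicate 2 that stood apart, with a deviation of -0.90, the lowest among members. Rps15a, Rpl3, Rps24, Rps27l and Rpl9 varied least, with CVs of 5.42%, 5.72%, 6.56%, 8.39% and 9.15%. The 3 members whose lowest value was not in replicate 2 were Rps24, Rpl21 and Rps27l, with deviations in replicate 2 of -0.08, -0.09 and 0.07. Rps27l was thus the single member slightly above the other replicates there.

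**Figure D2:**
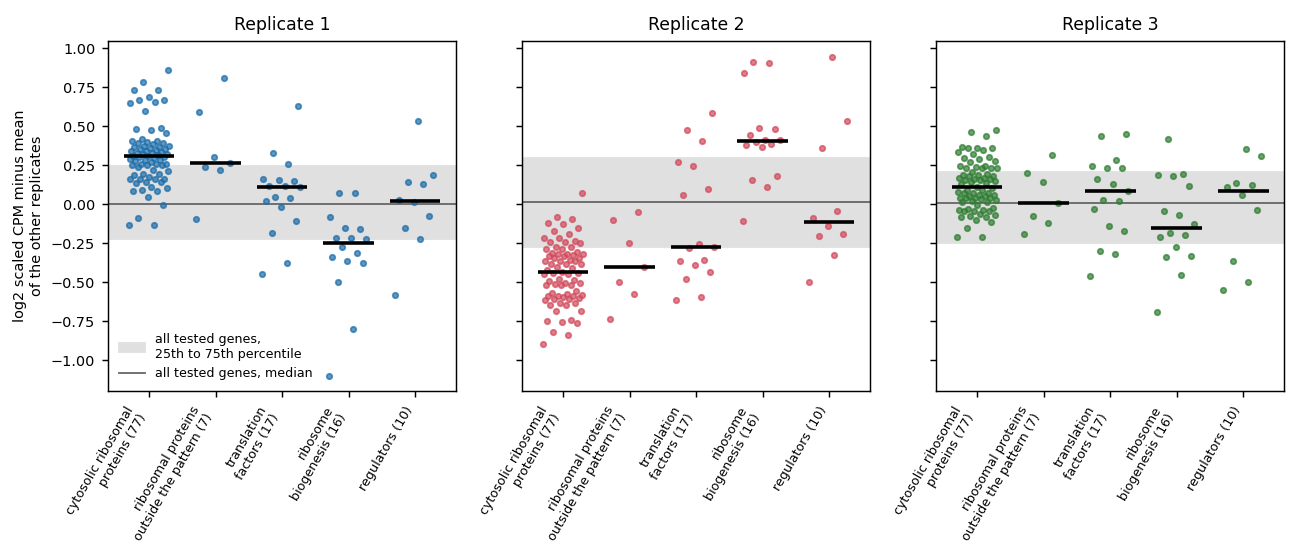
Deviation of each gene in a replicate from the mean of the other replicates (log2 of scaled CPM) for the cytosolic ribosomal proteins and related lists, with list medians as black bars and the 25th to 75th percentile of all tested genes in grey. In replicate 2 the members centre on -0.44 and the ribosome biogenesis genes on 0.40.

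Other genes of the pathway did not all follow. Of the 7 ribosomal protein genes outside the pattern 5 were lowest in replicate 2, beside 36.6% of all genes, with a median deviation of -0.40. Fau, whose product carries a ubiquitin-like domain ahead of the ribosomal protein, had a deviation of -0.73, and Rack1, a scaffold on the small subunit, one of -0.58. Translation factors were mixed, with a median of -0.27. In replicate 2 10 of 17 were lowest, beside 36.6% of all genes, and 6 of 17 highest, beside 37.8%. Their most abundant genes were Eef1a1, which brings aminoacyl-tRNA to the ribosome (deviation -0.27), and Tpt1 (-0.28), and the least abundant was Eif4ebp1, a repressor of cap-dependent initiation (-0.36).

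Ribosome biogenesis genes ran the other way. In replicate 2 13 of 16 had their highest value, beside 37.8% of all genes, and the median deviation was 0.40. Npm1 and Ncl, abundant nucleolar proteins, deviated by 0.38 and 0.49, and Polr1b, a subunit of RNA polymerase I and the lowest gene of the list, by 0.91. Against the 904, 656 and 936 TPM of Rplp0 in replicates 1, 2 and 3, Npm1 had 199, 263 and 168 TPM. Regulators of ribosomal protein synthesis showed no common direction, with a median of -0.11 and 5 of 10 lowest in replicate 2, beside 36.6% of all genes. Larp1 deviated by -0.32, Mdm2 by 0.53 and the low Myc by -0.50.

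Neutrophil markers moved with this contrast, with 4 of 4 tested markers highest in replicate 2, beside 37.8% of all genes, and a median deviation of 3.60. Macrophage markers had a median deviation of -0.23 there, and 5 of 8 were lowest, beside 36.6% of all genes. Their part in the members' result was not tested, and in bulk RNA fewer cells of a type and less RNA per cell cannot be told apart. Transcript length also differs between members and other genes. The 2612 other tested genes within the members' range of effective lengths had a median deviation of -0.06 in replicate 2, and 42.4% of them were lowest there. They were chosen by this range alone and not matched to the members in length, and the part of length was not tested.

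The second question was how far these levels depend on the way reads were assigned. For 72 of 80 members at least 1 non-member gene shared 100 or more distinct 31-base words with the most abundant coding transcript. There were 656 such copies in all, 617 of them annotated as processed pseudogenes and 635 with a single exon, and Rpl7a alone had 63. In the gene quantification the copies held 6.10%, 6.51% and 5.68% of the joint counts of members and copies in replicates 1, 2 and 3, against 11.5%, 9.49% and 8.95% in the second quantification. These shares are of all copies together, and the direction differed between members. In replicate 3 the Rps12 copies had 589 counts in the gene quantification and 12936 in the second. The Rps6 copies had 1151 and 8.53 counts there, and the Rpl23a copies 581 and 133.

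Copies of several members match a part of the member's transcript base for base, with 0 mismatches in each alignment named next. Rps12-ps3 on chromosome 19 is identical to 494 of the 584 bases of the most abundant coding Rps12 transcript, and Gm10275 to 634 of the 1242 bases of Rpl12. Gm15500 is identical to 1018 of the 2045 bases of Rpl5, and Rpl10-ps3 to 626 of the 648 bases of Rpl10. Of the 31-base words of these transcripts the copy shared 83.8% for Rps12, 49.8% for Rpl12, 49.0% for Rpl5 and 96.4% for Rpl10, and the other words are not in it. Shown is a stretch of 60 coding bases across an exon junction of each member and the same stretch in its copy, GENCODE M21 transcripts on mm10. Capitals mark the last base of one exon and the first base of the next, which adjoin in the copy without an intron. The members' stretches lie at chr10:23785902-23785931 and chr10:23785648-23785677 (Rps12, minus strand), chr2:32962643-32962672 and chr2:32962985-32963014 (Rpl12, plus), chr5:107903839-107903868 and chr5:107904717-107904746 (Rpl5, plus), and chrX:74272288-74272317 and chrX:74272672-74272701 (Rpl10, plus). The copies' stretches lie at chr19:59322575-59322634 (Rps12-ps3, plus), chr10:29699051-29699110 (Gm10275, minus), chr7:114705607-114705666 (Gm15500, minus) and chr9:50344583-50344642 (Rpl10-ps3, minus).
Rps12: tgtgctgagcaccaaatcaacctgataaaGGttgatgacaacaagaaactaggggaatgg
Rps12-ps3: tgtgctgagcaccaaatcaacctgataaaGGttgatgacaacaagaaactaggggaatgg
Rpl12: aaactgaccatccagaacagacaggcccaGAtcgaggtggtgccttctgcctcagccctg
Gm10275: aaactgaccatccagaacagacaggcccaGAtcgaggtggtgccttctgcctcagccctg
Rpl5: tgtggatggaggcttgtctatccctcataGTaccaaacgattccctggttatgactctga
Gm15500: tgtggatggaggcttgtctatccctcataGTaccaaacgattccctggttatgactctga
Rpl10: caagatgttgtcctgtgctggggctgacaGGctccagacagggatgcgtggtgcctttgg
Rpl10-ps3: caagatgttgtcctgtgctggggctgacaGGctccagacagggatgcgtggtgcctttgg
A fragment that lies wholly within the identical part fits both genes equally.

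Rps15a and its leading copy Rps15a-ps4 are shown for contrast, because they do differ. Over 219 aligned bases there were 4 mismatches, and the coding stretch below holds A124G, A135G and T150C, counted from 1 at the first coding base of Rps15a, with the base of Rps15a first and differing bases in capitals. It spans chr7:118115109-118115137 and chr7:118114834-118114864 in Rps15a and chr4:132220274-132220333 in the copy, both on the minus strand.
Rps15a: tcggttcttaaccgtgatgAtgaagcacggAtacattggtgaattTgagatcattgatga
Rps15a-ps4: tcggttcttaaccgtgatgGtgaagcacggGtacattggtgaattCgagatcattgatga
Here the copy held 65.1 counts over all replicates in the gene quantification and 7.55 in the second, against 22276 and 23585 for Rps15a itself. An identical part did not go with a shift of reads in every pair. Rps27rt matched 341 of the 345 bases of Rps27 with 0 mismatches and shared 98.7% of its 31-base words. Rps27 still took 98.9% ± 0.925 of the pair's CPM in the gene quantification and 99.6% ± 0.755 in the second (SD, n = 3).

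Between the quantifications, 10 of 77 tested members were higher in the gene quantification and 0 lower, by limma at an adjusted p under 0.05 and a ratio of at least 1.5-fold, beside 3.01% of all genes higher and 6.60% lower. No member had a mean ratio below 0 on the log2 scale. All tested genes had a median log2 ratio of 0.23, and members one of 0.45. Relative to the median gene of each library, 8 members were higher, beside 1.88% of all genes, and 0 lower, beside 6.36%. On that centred scale 75 of 77 members lay above 0, with a median of 0.22. Without centring, 57 of 77 members lay within 0.3 (log2) of the median ratio of all tested genes. In the second quantification single entries took much of the total, such as Mir6236 with 66042, 81470 and 131800 TPM in replicates 1, 2 and 3, against 0 TPM in the gene quantification.

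**Figure D3:**
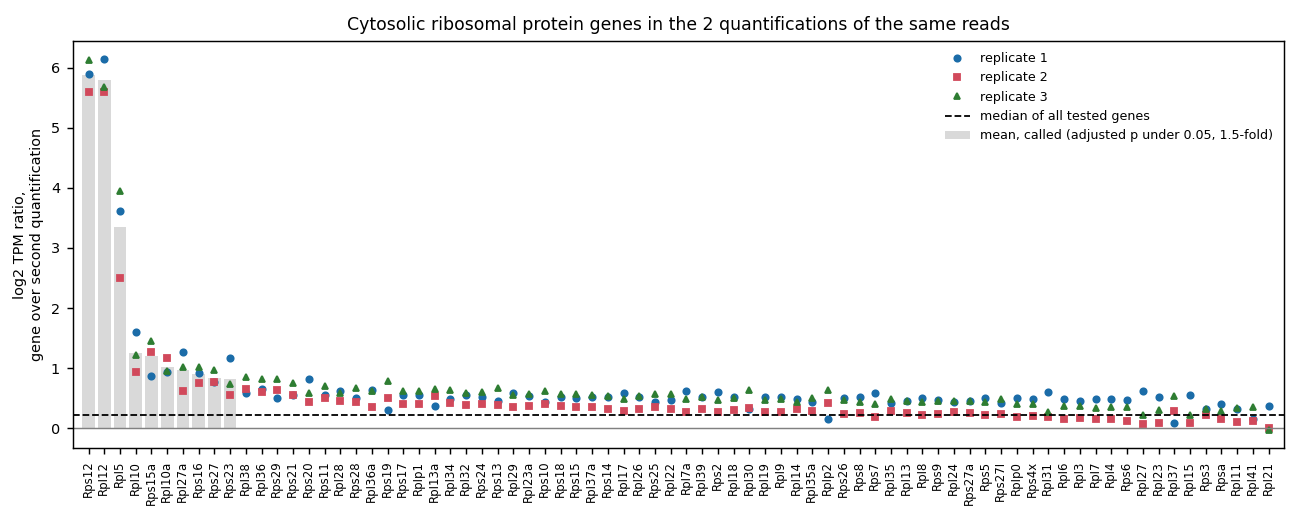
log2 ratio of TPM in the gene quantification over the second quantification for 76 of the 77 detected cytosolic ribosomal protein genes, per replicate, with the mean of called genes as grey bars and the median of all tested genes as a dashed line. Rps12, Rpl12 and Rpl5 stand far above the rest, with means of 5.87, 5.80 and 3.36, and most other genes lie near the line.

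The large ratios lay in a few genes. Rps12 (chr10:23785183-23787275) had 1443, 894 and 1038 TPM in the gene quantification, against 24.0, 18.4 and 14.8 TPM in the second, a log2 ratio of 5.87 ± 0.27 (SD, n = 3; limma adjusted p = 2.86e-106). Rpl12 (chr2:32961559-32965345), part of the stalk base, had 342, 274 and 297 TPM, against 4.74, 5.60 and 5.72 TPM, a log2 ratio of 5.80 ± 0.30 (limma adjusted p = 8.30e-104). Rpl5 (chr5:107900502-107909005) had 112, 72.0 and 70.1 TPM, against 9.07, 12.6 and 4.45 TPM, a log2 ratio of 3.36 ± 0.75 (limma adjusted p = 1.53e-35). After centring on the median gene of each library the limma adjusted p was 0.00101 for Rps12, 0.000987 for Rpl12 and 0.0171 for Rpl5, with log2 ratios of 5.64, 5.57 and 3.13. For all 3 genes the ranges of the quantifications did not overlap, and the fold was 58.5, 55.8 and 10.2. Rpl10 followed with 2086, 1730 and 2182 TPM, against 691, 908 and 938 TPM, a log2 ratio of 1.25. Rps15a, Rpl10a, Rpl27a, Rps16, Rps27 and Rps23 had ratios of 1.20, 1.02, 0.97, 0.90, 0.84 and 0.82.

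Where the second quantification gave a called member fewer counts over the 3 replicates, it gave the leading copy more. Over the 3 replicates Rps12 and Rps12-ps3 held 26320 and 656 counts in the gene quantification, against 729 and 28793 in the second. Rps12 thus took 97.4% ± 1.56 of the pair's CPM in the gene quantification and 2.56% ± 0.405 in the second (SD, n = 3). Rpl12 and Gm10275 held 21772 and 9797 counts, against 479 and 33211. For Rpl10 and Rpl10-ps3 the counts were 70829 and 4200, against 43089 and 37261. When member and copy were summed, the log2 CPM ratio between the quantifications was 0.09 for the Rps12 pair and 0.11 for the Rpl12 and Rpl10 pairs.

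Rpl5 was a special case, since neither quantification gave it most of the reads. With 6452 counts in the gene quantification it stood beside 27707 for Gm15500, a share of 19.1% ± 2.99 of the pair's CPM (SD, n = 3), and in the second it had 827 counts beside 36391, a share of 2.34% ± 0.754. The pair together had 294 ± 34.1 CPM in the gene quantification and 277 ± 30.8 CPM in the second. Its place as the lowest detected member holds for the gene alone. Summed with all of its copies Rpl5 had a mean of 571 TPM in the gene quantification, the 20th lowest of the 77 detected members, and the lowest was then Rps27l with 192 TPM.

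Rpl41, which encodes the shortest ribosomal protein, showed the opposite pattern to the pairs above, and it was not alone in this. In replicate 1 the Rps28 copies had 389 counts in the gene quantification and 2.02 in the second, and the Rpl17 copies 306 and 71.2. Rpl41 had 24540 counts over the 3 replicates in the gene quantification beside 13302 for Gm10076, a single-exon gene annotated as lincRNA. In the second the counts were 44237 and 36.9. On CPM it was the 1 member lower in the gene quantification, with a log2 ratio of -0.65 (limma adjusted p = 0.00200), while on TPM the ratio was 0.20 and not called. The transcript lengths differed too, because Rpl41-203 (437 bases) had 1114 ± 122 TPM in the gene quantification and 204 TPM in the second, and Rpl41-201 (582 bases) 205 ± 39.1 TPM and 989 TPM.

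For Rps15a and Rps27 the called TPM ratio had no counterpart in reads. On CPM their log2 ratios were 0.12 each. In Rps15a the 250-base transcript Rps15a-203 had 641, 729 and 863 TPM in the gene quantification, against 238, 144 and 179 TPM in the second. TPM divides by the length of the isoform that reads are given to, and the part of this in the ratio was not tested.

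**Figure D4:**
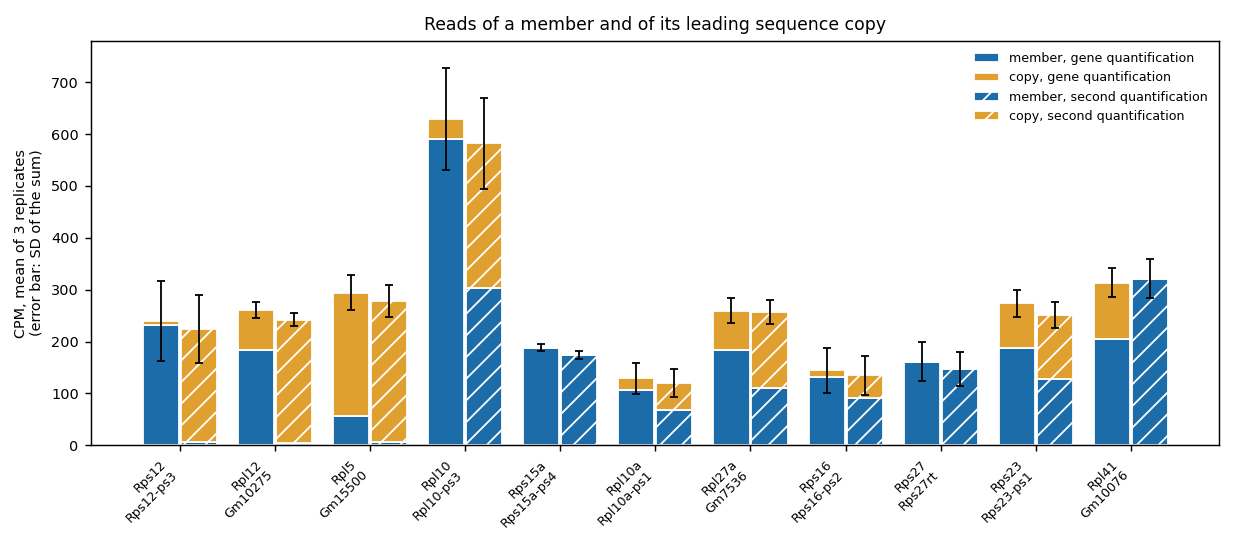
Mean CPM over 3 replicates of the members called between the quantifications, and of Rpl41, each stacked with its leading sequence copy, in the gene quantification (plain, left) and in the second quantification (hatched, right). Error bars are the SD of the sum, and the summed heights of a pair are close. The split inside the bar changes in most pairs, as for Rps12 with 233 CPM plain and 5.66 CPM hatched, but hardly for Rps15a and Rps27.

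With every member summed with its copies and centred on the median gene, 4 members were called higher and 0 lower. Of all tested genes 1.85% were called higher and 6.36% lower in this setting. The 4 members were Rps28 (log2 ratio 1.16), Rpl41 (0.87), Rps29 (0.63) and Rps27 (0.62), so Rps27 was the 1 gene shared with the 10 members called alone. Few reads carried some of these sums. In the gene quantification the Rps28 copies had 954, 1270 and 1479 TPM from 389, 374 and 893 counts in replicates 1, 2 and 3. The Rps29 copies had 1056, 72.4 and 84.8 TPM from 138, 6.46 and 16.7 counts. Summed Rpl12 had a log2 ratio of -0.57 (limma adjusted p = 0.0157), short of the 1.5-fold limit. Over detected members the SD of log2 mean TPM in the gene quantification was 0.79 for the sums, against 0.91 without copies. In the second quantification the same values were 0.68 for the sums, against 1.39 without copies. The members' median deviation in replicate 2 was -0.40 both with copies summed and in the second quantification.

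The last measurement was the kind of transcript that carried each gene. Members have 484 annotated transcripts, of which 226 are protein-coding, 172 are typed as retained intron, 62 as processed transcript and 24 as targets of nonsense-mediated decay (NMD). Transcripts of the other types took 4.83%, 4.29% and 4.17% of the members' TPM in replicates 1, 2 and 3, a mean of 4.43% ± 0.349 (SD, n = 3), against 8.55% ± 0.616 over all detected nuclear protein-coding genes. In 53 of 77 detected members this share was under 1%, and in 8 it was above 10%.

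The share was concentrated in a few genes. Rps20 had 87.7%, 90.1% and 85.8% of its TPM on transcripts of other types in replicates 1, 2 and 3, nearly all on Rps20-201, a transcript of 582 bases and 3 exons typed as retained intron. The coding Rps20-203 is 3706 bases long and had 47.4 ± 17.9 TPM, against 337 ± 110 TPM for Rps20-201. Rps16 had 81.0% ± 2.82 on retained-intron types, and Rpl5 60.9% ± 6.13 (SD, n = 3 each). In Rpsa the main other type was NMD, with 66.7% ± 4.37. Rpsa-206, typed as NMD, had 304 ± 35.5 TPM, against 149 ± 26.2 TPM for the coding Rpsa-201. Rpl13a, Rpl35 and Rps19 were above 10% as well.

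**Figure D5:**
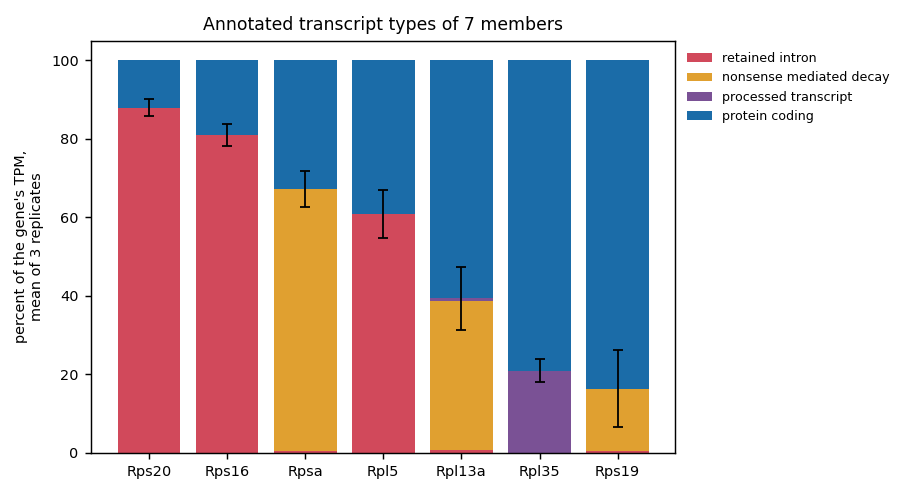
Percent of each gene's TPM on transcripts of each annotated type, mean of 3 replicates, for 7 of the 8 cytosolic ribosomal protein genes with more than 10% outside protein-coding transcripts. Error bars are the SD of the share outside protein-coding transcripts, and Rps20 and Rps16 stand highest, with 87.9% and 81.0% on retained-intron types.

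The second quantification gave 86.8% for Rps20 and 81.3% for Rps16, within the SD of the gene quantification. For Rpsa it was 75.8% on NMD types, above the 66.7% of the gene quantification. The types are labels of the annotation, and whether such transcripts are translated was not measured.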

How the data were processed

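Polyadenylated RNA was sequenced from 3 libraries of a single group. Per the file headers, the authors deposited for each library expected counts, TPM, FPKM and, per transcript, the percent of the gene's abundance, and in a second quantification estimated counts and TPM. The assembly is mm10 with GENCODE M21, per the text files deposited beside them. The aligner, quantifiers and strand setting were not given in the sources used here, and reads of overlapping genes cannot be told apart.

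Symbols, types and positions came from the file headers and GENCODE M21. Entries without a mouse gene identifier (28651, 34450 and 49716 counts in replicates 1, 2 and 3) stayed out of library sizes. Deposited FPKM entered 1 alternative threshold of detection, and the deposited percent column was not used. The second quantification was summed per gene. Expected counts were rounded to whole numbers for tests. Genes passing edgeR 4.0.16's filterByExpr (R 4.3.3) were scaled by TMM and tested with a chi-square test of equal rates over libraries, adjusted by Benjamini-Hochberg over all 11611 genes tested, and the common biological coefficient of variation was 23.1%. The 2 quantifications were compared with limma 3.58.1 on log2 ratios of TPM + 0.1 over 10720 genes at 1 TPM or more in either in every replicate, called at an adjusted p under 0.05 and 1.5-fold. Fold changes on this scale understate changes of low genes. Both steps were tested on simulated data. Copies, alignments (Biopython) and start windows (RefSeq, GRCm38.p6) were derived from the reference tables. DESeq2 1.42.0 size factors were an alternative.

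Named genes were all members under detection, the 10 highest and 5 lowest by mean TPM, the 5 highest and 5 lowest by CV, the 10 largest called ratios, the 5 highest by share outside protein-coding transcripts, the stalk proteins, the paralog pairs, 5 well-known members, all ribosomal protein genes outside the pattern, and the 2 highest and the lowest of the other lists. Some items that this rule names are not reported here. Rpl21, Rpl7a, Rpl13a and Rpl35 were named after their values were seen. The members and lists were chosen with earlier results of these data known. Fragments carry no molecular identifiers, so limits cover counting error only.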

Additional observations from a re-analysis of the deposited data

How the results depend on the processing

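Of 117 alternatives over 18 results, 102 counted as the same. For the member level, the subunit difference and the paralog pairs this required the same sign alone, whatever the size. The other results had to stay within a limit of size. The members' share of TPM was 4.62% in the second quantification, 1.75% of expected counts and 8.03% of nuclear protein-coding TPM (the last chosen after seeing the data). The number of members higher in the gene quantification was 10 in the report, beside 3.01% of all genes. It was 16 with a pseudocount of 1 TPM (all genes 3.47%), 6 on CPM (1.79%) and 17 on protein-coding transcripts alone (2.41%). With copies summed and centred (chosen after seeing the data) it was 4, beside 1.85% of all genes. When 1 replicate was left out it was 6 to 20, with 20 without replicate 2 (all genes 4.99%) and 6 without replicate 3 (2.80%). The number lower was 1 on CPM, Rpl41, beside 5.28% of all genes. For these counts the cause was not tested. The log2 difference of the large and small subunit medians kept its sign but was -0.39 in the second quantification and -0.12 on CPM, and on CPM Rps27l and Rpl7l1 stood at -2.43 and -2.64 relative to their usual genes. The log2 difference of Rpl36al and Rpl36a was 0.18 on CPM and -0.17 to 0.0040 with 1 replicate left out, the highest without replicate 1. The median CV was 7.76% to 24.5% with 1 replicate left out, the lowest without replicate 2. The members' median deviation in replicate 3 was 0.38 against replicate 2 alone and -0.13 against replicate 1 alone, and that in replicate 2 was -0.51 to -0.38. Rps12, Rpl12, Rpl5 and Rpl10 were among the members called higher under every alternative except summing with copies.

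No paired analysis was possible because there is a single group. The pairs of Rpl3l and Rpl10l give no fold, since these genes are at or under 3 counts. Protein sequences were not used here. With 3 libraries no permutation test can pass 0.05.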
